A study of Mus musculus with 8 samples.

Results

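Transcripts of 41 listed DNA repair and damage checkpoint genes were followed in mouse embryonic fibroblasts (MEFs) that lost the histone H3.3 gene H3f3b through Cre. Members were taken by gene symbol, and a member was measured where at least 1 of its probes stood out from the negative control beads of an array, with a detection p-value under 0.05, on at least 3 of the 8 arrays. This left 25 of the 41 genes, out of 8488 genes tested in all. None of the 25 differed between Cre and GFP cells at an adjusted p under 0.05, and every mean difference lay between -0.40 and 0.24 on the log2 scale. Blm, a RecQ helicase that takes apart recombination intermediates, had the lowest value and was lower after Cre in each of the 3 lines. Its probe was detected on 6 of the 8 arrays.

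Cells mend DNA by several routes, each matched to a kind of damage. Double-strand breaks are bound by the Mre11a-Rad50-Nbn complex, signaled through the kinases Atm, Atr, Chek1 and Chek2, and mended by homologous recombination, which copies an intact sister, or by end joining, which ligates the ends directly. Mismatch, base excision and nucleotide excision repair deal with replication errors, small damaged bases and bulky lesions, and the Fanconi anaemia proteins clear crosslinks between the strands. Many of these genes, above all those of recombination, are transcribed mostly in dividing cells, so their levels in a fibroblast culture are known to vary with its growth.

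All 8 arrays came from C57BL6J MEFs of genotype H3f3b Fl/Fl, isolated from E12.5 embryos, so that control cells carried the floxed alleles as well. The lines cKO1, cKO2 and pcKO1 each received either a retrovirus encoding Cre and GFP (CRE-IRES-GFP) or the GFP vector alone (IRES-GFP), with cKO2 hybridized in duplicate in both arms. Biotin-labeled RNA copies were read on Illumina MouseRef-8 BeadChips, a 1-color platform with many beads for each probe. The label cKO2 (2) does not say whether the duplicates are separate cultures, and the methods call the conditional samples analytical duplicates. The duplicates were averaged, so that n = 3 lines in each arm, and nothing in the labels says that the lines came from separate embryos. Column names of the deposited non-normalized intensities hold a cell name both alone and as pooled, so lines may share a source. The p-values for Cre against GFP therefore speak for these lines only. Their error also draws on the variance of other genes. Cells were bulk cultures taken after transduction, in which fewer cells with a transcript and less RNA per cell cannot be told apart, and cells in which Cre did not act would remain in the mixture.

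Between 9741 and 10888 of 25697 probes were detected on a Cre array and between 10134 and 10580 on a GFP array. Log2 levels correlated across genes at r = 0.994 between cKO2 duplicates, at 0.974 to 0.993 between the arms of a line and at 0.877 to 0.944 between lines. Of the fibroblast markers with a probe, 9 of 9 were detected, Col1a1, Vim and Pdgfra among them. No endothelial or erythroid marker was detected, while 1 of 7 macrophage, 2 of 4 epithelial, 3 of 6 skeletal muscle and 4 of 6 neural markers were.

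Levels are log2 intensities after background correction by normexp, which models the background of each array, and quantile normalization, which gives the arrays 1 common distribution. A difference is Cre minus GFP on this scale, so that 1 stands for a 2-fold change, and its error comes from limma, a linear model that shares variance across genes. An SE or interval given with n = 3 lines is thus not the spread of those lines alone.

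H3f3b itself was at 12.05 in GFP and 6.73 in Cre cells of cKO1. It was at 12.42 and 12.62 against 7.39 and 7.42 on the cKO2 duplicates, and at 11.94 against 9.77 in pcKO1. The arms did not overlap, although pcKO1 kept 22.2% of its H3f3b intensity after Cre and cKO1 2.5%. Both shares are of intensities that include the added normexp offset of 50, so they depend on that setting. Across background settings the mean H3f3b difference ran from -3.88 with no correction to -4.5 with an offset of 16. As reported it was -4.20 ± 0.51 (SE, n = 3 lines), with an adjusted p of 0.188 (limma, Benjamini-Hochberg over all genes). The SD between the 3 line differences of H3f3b was 1.76. H3f3b passed when any 1 of the lines was left out, but the error of those fits rested largely on the variance shared across genes. Without cKO1, for example, the differences left were -5.11 in cKO2 and -2.17 in pcKO1. Passing there is thus no measure of how alike the lines were.

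The measured members covered every route, though unevenly. They were 5 of 10 homologous recombination genes, 3 of 8 break sensing and checkpoint genes, 3 of 4 end joining genes, 2 of 3 mismatch repair genes, 6 of 7 base excision and single-strand break genes, 3 of 4 nucleotide excision genes and 3 of 5 Fanconi anaemia genes. For Xrcc2, Atr and Fanca the value table held no probe. The remaining 13 had no probe past the filter, namely Brca1, Bard1, Xrcc3, Exo1, Nbn, Atm, Chek1, Topbp1, Xrcc5, Msh3, Ogg1, Ercc2 and Fancg. Among these, the brightest probe was detected on 2 arrays for Ogg1, on 1 array for Brca1, Xrcc3 and Atm, and on 0 arrays for the other 9, so their signals did not stand out from background on most or all arrays and no difference is given for them. Of the 25 measured genes, 14 were detected on all 8 arrays and 11 on 3 to 7, each on at least 1 array of both arms.

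The comparison of Cre with GFP within lines asked whether repair transcripts shift once H3f3b is deleted. Over all 8488 genes, 0.0% passed an adjusted p of 0.05 in either direction (limma with the line as a block, Benjamini-Hochberg), and 312 genes, or 3.68%, had an unadjusted p under 0.05. Among the 25 members 0 passed and 1, Blm, had an unadjusted p under 0.05. Without the line as a block 0 members passed and 0 had an unadjusted p under 0.05. Adjusted p-values of the members ran from 0.967 to 1.0. The SE of a member lay between 0.117 and 0.169, and 24 of the 25 intervals (95%) included 0. For 23 members the interval lay wholly inside a 1.5-fold difference either way, and for 25 inside a 2-fold difference. Both counts are for the reported background correction.

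By line, the median difference of the 25 members was 0.04 for cKO1, -0.10 for cKO2 and -0.24 for pcKO1, beside -0.03, 0.01 and -0.01 over all genes tested. In cKO1 14 members were above 0 and 11 below (47.5% and 52.4% of all genes). In cKO2 8 were above and 16 below (51.5% and 48.5%), with Msh6 at 0.00, and in pcKO1 7 were above and 18 below (48.9% and 50.9%). The value in cKO1 depended on the scaling between arrays. With median scaling in place of quantile normalization, the median of all genes in cKO1 moved from -0.03 to -0.16 and that of the members from 0.04 to -0.13, with 5 members above 0 and 20 below. The members' median in cKO1 was above that of all genes under both scalings, though its sign changed. By the brightest probe of each gene, no member reached a 1.5-fold difference (0.58) in any single line with the reported background correction. Of all genes, 13.4% did in cKO1, 0.495% in cKO2 and 3.24% in pcKO1. Among the members' dimmer detected probes 3 did. These were a Blm probe at -0.67 in cKO1, a Fancl probe at -0.68 in pcKO1 and an Xrcc6 probe at -0.64 in pcKO1. The brightest probes came close, with Blm at -0.57 in cKO2 and Fancc at -0.56 in cKO1. The size of such differences depended on the background setting. With a normexp offset of 16 the mean Blm difference over the 3 lines was -0.56, beside -0.40 as reported. Single-line differences were not counted at that offset.

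**Figure D1:**
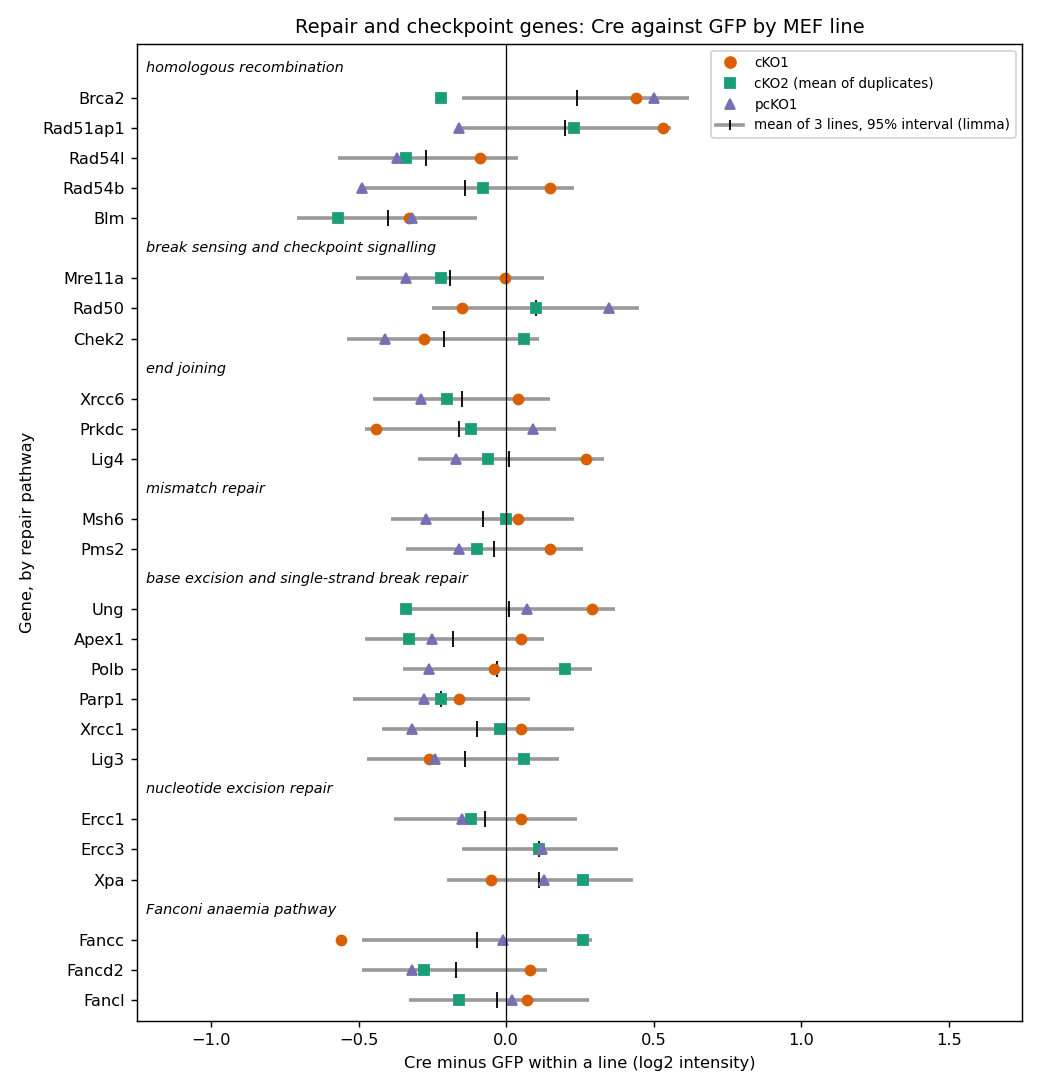
Each row is 1 of the 25 measured genes, grouped by repair route, and the horizontal axis is the Cre minus GFP difference in log2 intensity; colored symbols are the 3 lines and the black tick with its gray bar is their mean with the 95% interval from limma. All line values lie between -0.57 and 0.53, and the interval of Blm, from -0.71 to -0.10, is the only 1 that leaves out 0.

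Homologous recombination held both the lowest and the highest mean difference among the members. Blm was at 8.21 in GFP and 7.88 in Cre cells of cKO1, at 6.84 and 6.99 against 6.06 and 6.64 on the cKO2 duplicates, and at 7.45 against 7.13 in pcKO1. Each Cre array was below the GFP array of its own line, yet the arms overlapped, since the Cre arrays of cKO1 and pcKO1 were above both GFP arrays of cKO2. This Blm probe was detected on 6 of the 8 arrays, 2 of them Cre arrays. The larger gap between its cKO2 duplicates was 0.58. The mean difference was -0.40 ± 0.13 (SE, n = 3 lines), an unadjusted p of 0.0164 and an adjusted p of 0.967 (limma, Benjamini-Hochberg). A second Blm probe, detected on 5 arrays, gave -0.42 ± 0.14 with -0.67, -0.24 and -0.34 in cKO1, cKO2 and pcKO1. The size of the Blm difference ran from -0.30 with no background correction to -0.56 with a normexp offset of 16.

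Rad54l, an ATPase that acts in strand invasion, was at 7.95 in GFP and 7.86 in Cre cells of cKO1, at 6.82 and 6.62 against 6.29 and 6.47 in cKO2, and at 7.21 against 6.84 in pcKO1. It was detected on 5 of the 8 arrays and was lower after Cre in every line, with arms that overlapped. The mean was -0.27 ± 0.13 (adjusted p of 0.967, limma). Its relative Rad54b was at 8.36 against 8.51 in cKO1, at 6.89 and 6.79 against 6.69 and 6.83 in cKO2, and at 7.74 against 7.26 in pcKO1. The sign of Rad54b thus differed between lines, from 0.15 in cKO1 to -0.49 in pcKO1.

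Rad51ap1, which stimulates strand invasion, stood at 7.29 in GFP and 7.82 in Cre cells of cKO1. It was at 6.69 and 6.50 against 6.73 and 6.91 in cKO2 and at 6.62 against 6.46 in pcKO1. Brca2, a mediator of recombination, was at 6.69 against 7.12 in cKO1, at 7.03 and 6.70 against 6.53 and 6.76 in cKO2, and at 6.68 against 7.17 in pcKO1. Brca2 was the member with the highest mean, 0.24 ± 0.17, but the 2 cKO2 pairs gave -0.50 and 0.06. Both genes were detected on only 5 of the 8 arrays.

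Of the break sensing genes, Mre11a, the nuclease of the break-binding complex, was at 9.01 in both arms of cKO1. It was at 8.15 and 8.12 against 7.80 and 8.02 in cKO2 and at 8.24 against 7.90 in pcKO1. The difference in cKO1 was -0.00428, so that the shared sign across lines rested on cKO2 and pcKO1, and the mean was -0.19 ± 0.14. A second Mre11a probe, detected on 5 arrays, was higher after Cre in cKO1 at 0.35 and lower in cKO2 and pcKO1 at -0.15 and -0.41.

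Rad50, the ATPase that tethers the broken ends in that complex, was lower after Cre in cKO1 and higher in the other lines by its brighter probe. It was at 8.24 in GFP and 8.09 in Cre cells of cKO1, at 8.41 and 8.55 against 8.55 and 8.61 in cKO2, and at 8.38 against 8.74 in pcKO1, a mean of 0.10 ± 0.15. A second Rad50 probe, detected on 3 arrays, was at 0.10, 0.08 and 0.52 in cKO1, cKO2 and pcKO1, so that only the sign in cKO1 differed between the probes. The effector kinase Chek2 had 2 detected probes whose signs were opposite in every line. The brighter gave -0.28, 0.06 and -0.41 in cKO1, cKO2 and pcKO1 and a mean of -0.21 ± 0.14, while the dimmer gave 0.26, -0.03 and 0.45 and a mean of 0.23 ± 0.14. No direction can be given for Chek2 from these probes.

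The 3 end joining members had a median difference of -0.15, beside -0.10 over all members. Xrcc6, the Ku70 subunit that caps broken ends, was at 0.04, -0.20 and -0.29 in cKO1, cKO2 and pcKO1, a mean of -0.15 ± 0.13. Of its other probes, 1 gave a mean of -0.28 ± 0.16 and 1, detected on 6 arrays, 0.05 ± 0.15. Prkdc, the catalytic subunit of the DNA-dependent protein kinase, was at 6.85 in GFP and 6.41 in Cre cells of cKO1, at 6.79 and 6.74 against 6.61 and 6.67 in cKO2, and at 6.32 against 6.41 in pcKO1. Lig4, the ligase that seals the ends, was at 6.50 against 6.77 in cKO1, at 6.73 and 6.71 against 6.80 and 6.52 in cKO2, and at 6.79 against 6.62 in pcKO1. Their means were -0.16 ± 0.14 and 0.01 ± 0.14, on probes detected on 4 and 3 arrays.

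In mismatch repair, Msh6, which recognizes mispaired bases, was at 0.04, 0.00 and -0.27 in cKO1, cKO2 and pcKO1, and Pms2, an endonuclease of the same route, at 0.15, -0.10 and -0.16. Neither mean, -0.08 ± 0.13 and -0.04 ± 0.13, exceeded its SE.

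Base excision and single-strand break repair was the route with the most complete cover. Parp1, which senses nicks and builds poly(ADP-ribose) chains, was at 9.68 in GFP and 9.53 in Cre cells of cKO1, at 9.40 and 9.35 against 9.07 and 9.24 in cKO2, and at 9.45 against 9.17 in pcKO1. Every Cre array was below the GFP arrays of its line, and the mean was -0.22 ± 0.13 (adjusted p of 0.967, limma). A second Parp1 probe, also detected on all 8 arrays, stood at 0.27, -0.08 and -0.18 and averaged 0.00224, so the shared sign did not extend to it.

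Ung, the glycosylase that removes uracil from DNA, was at 7.92 against 8.21 in cKO1 and at 7.45 against 7.51 in pcKO1, while the cKO2 pairs differed by -0.26 and -0.42. Apex1, which cuts the backbone where a base is missing, was at 10.93 against 10.98 in cKO1, at 10.45 and 10.54 against 10.29 and 10.05 in cKO2, and at 10.11 against 9.86 in pcKO1. A second Apex1 probe had a mean of 0.01 ± 0.14 where the brighter had -0.18 ± 0.13. The gap-filling polymerase Polb, the scaffold Xrcc1 and the ligase Lig3 averaged -0.03, -0.10 and -0.14.

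In nucleotide excision repair, Ercc3, a helicase of the transcription and repair factor TFIIH, was the only member whose brightest probe was higher after Cre in all 3 lines. Its GFP and Cre levels were 11.06 and 11.17 in cKO1, 10.81 and 10.62 against 10.73 and 10.92 in cKO2, and 11.05 and 11.16 in pcKO1. The 3 line differences of 0.11, 0.11 and 0.12 were alike, but the cKO2 pairs gave -0.08 and 0.31. The mean was 0.11 ± 0.12 (adjusted p of 0.967, limma), and with median scaling no member was higher in all 3 lines. A second Ercc3 probe, also detected on all 8 arrays, was at 0.30, 0.19 and -0.29 in cKO1, cKO2 and pcKO1, so the shared sign did not extend to it. Xpa, which verifies the lesion, and Ercc1, partner of the nuclease Ercc4, averaged 0.11 ± 0.14 and -0.07 ± 0.14.

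Among the Fanconi anaemia genes, Fancc, a subunit of the core complex, was at 6.93 in GFP and 6.37 in Cre cells of cKO1. It was at 6.41 and 6.67 against 6.77 and 6.83 in cKO2 and at 6.51 against 6.50 in pcKO1. These values are close to the detection limit, with Fancc detected on 3 arrays. Fancd2, which the core complex ubiquitinates at crosslinks, was at 7.07 against 7.15 in cKO1, at 6.86 and 6.50 against 6.54 and 6.27 in cKO2, and at 6.92 against 6.60 in pcKO1. The ubiquitin ligase Fancl averaged -0.03 ± 0.13.

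**Figure D2:**
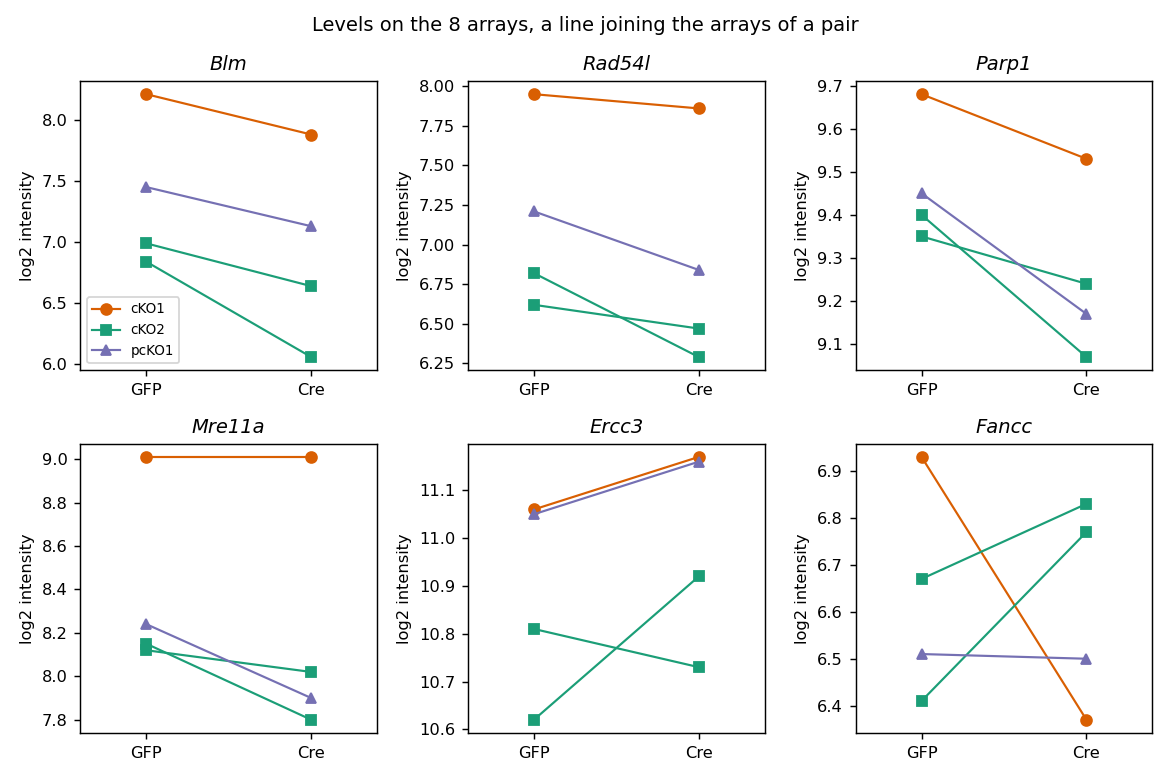
Log2 intensity of 6 members on the 8 arrays, GFP at the left and Cre at the right of each panel, with a line joining the arrays of 1 pair and separate vertical scales for each gene. For Blm the lines run downward in every pair while cKO1 stays highest, at 8.21 and 7.88; for Ercc3 the 2 cKO2 pairs run in opposite directions.

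Taken by the sign of the brightest probe alone, 4 members were lower after Cre in all 3 lines, Blm, Rad54l, Parp1 and Mre11a, where 13.2% of all genes were, and Ercc3 was the 1 member higher in all 3, where 12.6% were. The same 4 and the same 1 were found without background correction, with an offset of 16 and with cyclic loess. With median scaling 11 members were lower in all 3 lines, beside 17.6% of all genes.

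Levels also differed between lines. The mean levels of a member in the 3 lines spanned 0.07 to 1.63 on the log2 scale. The span was at least 1 in 4 of the 25 members, beside 19.9% of all genes, namely Rad54b, Blm, Rad54l and Rad51ap1, all of homologous recombination, with 1.63, 1.41, 1.35 and 1.01. In each of these cKO1 was the highest line. Just under the cut were Mre11a at 0.99 and Apex1 and Ercc1 at 0.96, genes of other routes, so the grouping by route hangs on the cut. The highest line was cKO1 for Mre11a and Apex1 and pcKO1 for Ercc1. The larger gap between duplicate arrays of cKO2 was 0.04 to 0.58. In 9 members the cKO2 pairs had opposite signs, beside 44.2% of all genes.

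Of the 25 genes, 10 had more than 1 detected probe, 21 probes in all, and the mean differences had opposite signs in 4, Apex1, Chek2, Parp1 and Xrcc6. Over all 36 detected probes of members, 2 had an unadjusted p under 0.05, both of Blm, and the lowest adjusted p was 0.962 (limma, Benjamini-Hochberg over every detected probe).

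**Figure D3:**
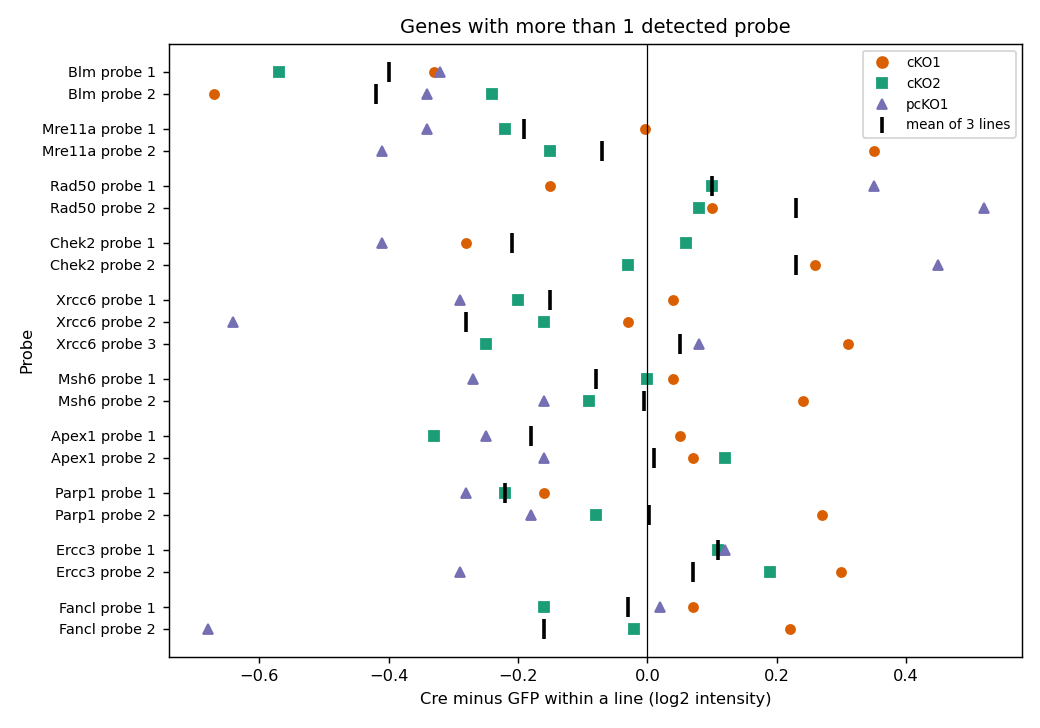
Cre minus GFP differences in log2 intensity for the 21 detected probes of the 10 genes with more than 1, with colored symbols for the lines and a black tick for the mean of the 3 lines; probe 1 is the brighter and stands for the gene elsewhere. The Blm probes, at -0.40 and -0.42, lie on the same side of 0 in every line, and the Chek2 probes, at -0.21 and 0.23, lie on opposite sides.

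A further contrast asked whether the Cre difference in cKO1 departed from the mean of those in cKO2 and pcKO1. Its error came from the cKO2 duplicates, which the methods call analytical, with the variance shared across genes by limma. In each arm cKO1 and pcKO1 had 1 array. A gene that passed therefore exceeded an error drawn from the duplicate gaps of that gene and of other genes. Whether separate cultures of 1 line would differ as much was not tested. The contrast was chosen with earlier results of these data known. Over all genes 15.1% passed, 6.34% as higher in cKO1 and 8.77% as lower, and 30.7% had an unadjusted p under 0.05 (limma, Benjamini-Hochberg). With median scaling the share of passing genes that were higher in cKO1 moved from 42.0% to 19.8%, while the median contrast of all genes moved from -0.03 to -0.15. Of the 25 members 0 passed under either scaling, and 1, Fancc, had an unadjusted p under 0.05.

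By the brightest probe of each gene, the members' values of this contrast ran from -0.68 to 0.49. Their SE was 0.17 to 0.28, and the 95% intervals reached from -1.24 to 1.02. Dimmer detected probes of Mre11a and Fancl were higher, at 0.63 and 0.57 (adjusted p of 0.114 and 0.147, limma over every detected probe). Among the brightest probes, Fancc was lowest at -0.68 ± 0.26 (adjusted p of 0.0889, limma), where cKO1 had -0.56, cKO2 0.26 and pcKO1 -0.01. Prkdc was at -0.42 ± 0.25 and Rad50 at -0.38 ± 0.20. On the other side stood Rad51ap1 at 0.49 ± 0.25, Rad54b at 0.43 ± 0.22, Ung at 0.43 ± 0.23, Lig4 at 0.38 ± 0.26, Fancd2 at 0.37 ± 0.28, Apex1 at 0.34 ± 0.18 and Brca2 at 0.30 ± 0.27. For Brca2 the value against pcKO1 alone was -0.06. By the brightest probes, the 3 lowest genes belonged to 3 routes, and the upper end held recombination, base excision, end joining and Fanconi anaemia genes.

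In 8 of the 25 members the sign was positive in cKO1 and negative in both other lines, beside 13.0% of all genes. With median scaling these were 2 members, beside 8.65%. The opposite order was seen in 2 members, beside 14.0%. The median contrast over the members was 0.19 and that over all genes -0.03, but with median scaling the members' median was 0.0016 and that over all genes -0.15.

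**Figure D4:**
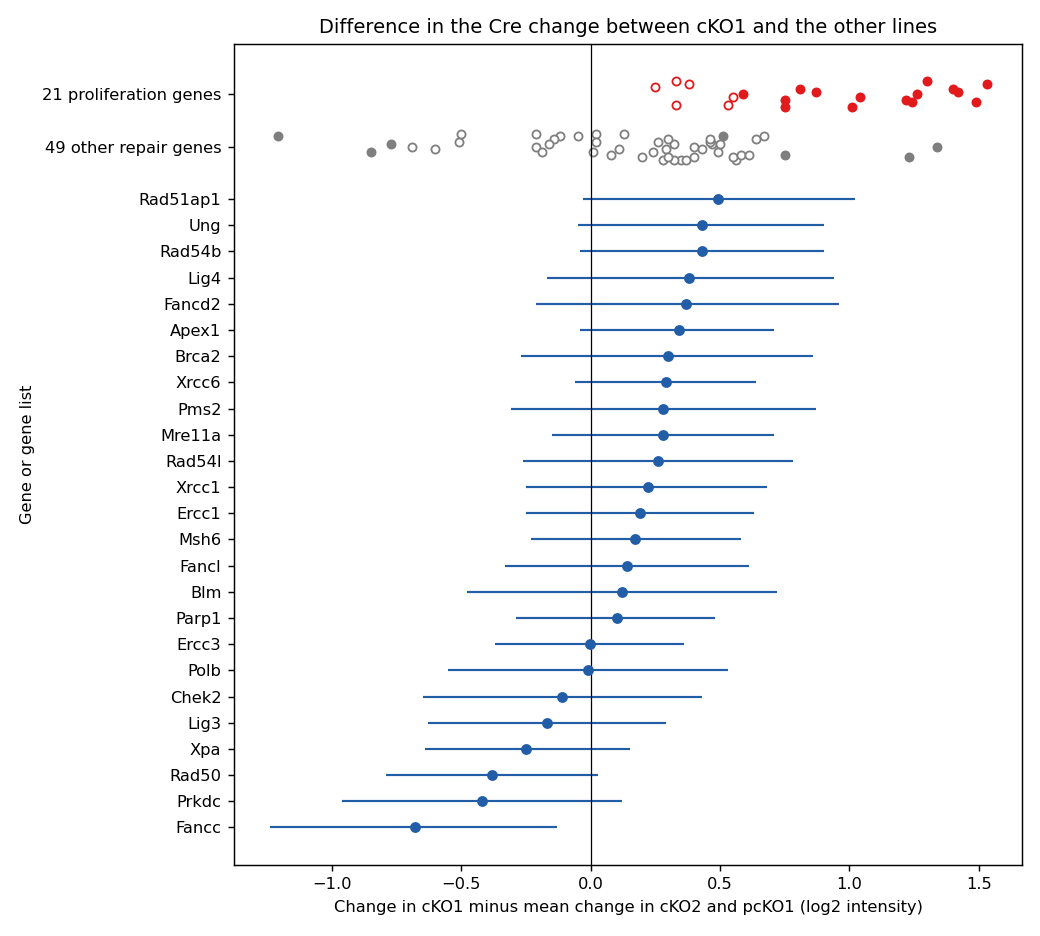
Change in cKO1 minus the mean change in cKO2 and pcKO1, in log2 intensity. The 25 members have 95% intervals, whose error comes from the cKO2 duplicates with the variance shared across genes. The 49 other repair genes and 21 proliferation genes are points, filled where the adjusted p (limma) was under 0.05. Members lie between -0.68 and 0.49, other repair genes between -1.21 and 1.34, and proliferation genes between 0.25 and 1.53.

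A list of further repair and checkpoint genes gave 49 measured genes for comparison. None passed the Cre against GFP test (limma, 0 at an unadjusted p under 0.05), with a median difference of -0.02. Under the line contrast 7 of 49 passed, 4 higher in cKO1 and 3 lower, a share close to the 15.1% over all genes. Fen1, the flap endonuclease of replication and long-patch repair, was at 10.25 in GFP and 10.95 in Cre cells of cKO1, at 8.79 and 8.51 against 8.16 and 8.26 in cKO2, and at 9.55 against 8.71 in pcKO1. The cKO1 Cre array was the highest of the 8, and the contrast was 1.34 ± 0.20 (adjusted p of 0.00029, limma).

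Rpa2, a subunit of the protein that coats single-stranded DNA, was at 8.22 against 9.16 in cKO1, at 7.09 and 7.19 against 6.97 and 6.86 in cKO2, and at 7.51 against 7.15 in pcKO1. Its contrast was 1.23 ± 0.22 (adjusted p of 0.00125). Lower in cKO1 were Mgmt, which reverses alkylated guanine, with -0.94 in cKO1 against 0.28 and 0.26 in cKO2 and pcKO1, and Ercc4, the nuclease that works with Ercc1, with -0.73 against -0.10 and 0.33. Their contrasts were -1.21 ± 0.22 and -0.85 ± 0.22 (adjusted p of 0.00159 and 0.0142, limma). The Mgmt levels in cKO1 were low, at 6.86 in GFP and 5.92 in Cre cells, on a probe detected on 7 arrays. The Mgmt contrast ran from -0.83 with no background correction to -1.93 with a normexp offset of 16. Against cKO2 alone Ercc4 was at -0.63 and no longer passed (adjusted p of 0.0876). The remaining 3 that passed were Rpa1 at 0.51, Smc5 at 0.75 and Ercc5 at -0.77.

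Other repair genes with 1 sign in all 3 lines did not pass the Cre against GFP test, and for most of those named the value in cKO1 was the largest. Rad23b, which helps recognize bulky lesions, was at 0.52, 0.22 and 0.02 in cKO1, cKO2 and pcKO1, a mean of 0.25 ± 0.15 that was 0.12 without cKO1. Xrcc4, the partner of Lig4, was at 0.48, 0.22 and 0.01, a mean of 0.24 ± 0.15 that was 0.11 without cKO1. The glycosylase Mpg was at -0.54, -0.07 and -0.00447, a mean of -0.20 ± 0.15 that was -0.04 without cKO1. The ubiquitin ligase Rnf8 was at -0.13, -0.14 and -0.27, with a mean of -0.18 ± 0.13. In all, 4 of the 49 were lower in the 3 lines and 6 were higher, beside 13.2% and 12.6% of all genes.

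For comparison, 21 proliferation genes were followed, 14 of S phase and 7 of mitosis. Their median difference was 0.41 for cKO1, -0.48 for cKO2 and -0.49 for pcKO1, beside 0.04, -0.10 and -0.24 for the members. In 17 of 21 the sign was positive in cKO1 and negative in both other lines, beside 13.0% of all genes. This count was not taken with median scaling, where 8.65% of all genes had those signs. The line contrast was passed by 15 of 21, all higher in cKO1, beside 6.34% of all genes (limma, Benjamini-Hochberg over all genes). Mcm5, a subunit of the replicative helicase, was at 0.71, -0.96 and -0.68, and Rrm2, a subunit of ribonucleotide reductase, at 1.01, -0.32 and -0.64. The mitotic regulator Birc5 was at 0.33, -0.81 and -1.01. Lower in all 3 lines were 3 of 21, beside 13.2% of all genes. These were Rrm1 at -0.19, -0.54 and -0.49, Plk1 at -0.22, -0.97 and -0.58, and Top2a at -0.07, -0.42 and -0.49. In Cre against GFP 0 of 21 passed, and 3 had an unadjusted p under 0.05 (limma), beside 3.68% of all genes. The part of the proliferation genes in the members' line values was not tested.

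E2F factors are known to drive S phase genes, repair genes among them, so promoters from RefSeq (GRCm38.p6, 250 bases before to 50 after a gene start) were searched on both strands for the E2F-type letters TTTCGCGC, TTTGGCGC and TTTCCCGC. A match was found in 1.84% of 32851 promoters, and for 2.12% of the 27025 genes they belong to. By gene, it was found for 4 of the 19 measured members with an entry, Chek2, Brca2, Xrcc6 and Msh6, for 4 of 43 other repair genes and for 7 of 19 proliferation genes. The stretches holding the match in 3 members are given on the gene's strand, 5′ to 3′, with the match in capitals, from Chek2 (chr5:110839783-110839982), Brca2 (chr5:150522421-150522620) and Xrcc6 (chr15:82016169-82016368), all on the plus strand.
Chek2: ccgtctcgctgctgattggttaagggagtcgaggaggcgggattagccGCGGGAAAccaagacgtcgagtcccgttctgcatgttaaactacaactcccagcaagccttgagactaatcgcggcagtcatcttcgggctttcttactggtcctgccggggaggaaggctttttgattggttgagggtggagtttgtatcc
Brca2: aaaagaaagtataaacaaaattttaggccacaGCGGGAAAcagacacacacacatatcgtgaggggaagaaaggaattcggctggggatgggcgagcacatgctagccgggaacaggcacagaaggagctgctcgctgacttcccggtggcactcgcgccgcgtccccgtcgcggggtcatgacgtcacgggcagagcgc
Xrcc6: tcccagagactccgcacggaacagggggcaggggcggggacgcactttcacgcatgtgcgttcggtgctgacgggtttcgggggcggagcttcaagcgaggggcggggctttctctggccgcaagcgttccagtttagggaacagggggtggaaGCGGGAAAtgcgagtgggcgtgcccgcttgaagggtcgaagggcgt
Each holds the reverse complement of the third form, GCGGGAAA, beginning at -152, -168 and -46 from the gene start. The line contrasts of these genes were -0.11 ± 0.25, 0.30 ± 0.27 and 0.29 ± 0.17, and none passed (limma). Msh6, also with a match, was at 0.17 ± 0.19. Rad51ap1 and Ung, at 0.49 and 0.43, held no match. Whether match and contrast go together was not tested. A match describes the letters only, and its absence says nothing about the factor.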

How the data were processed

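The authors hybridized RNA from 8 MEF cultures to MouseRef-8 arrays and used GenomeStudio, version 3.1.1.0 in the methods. They deposited sample-named intensity values, linear, each array scaled to 1 mean, and a non-normalized intensity table with a detection p-value for each probe. Columns of that second table name the arm and the cells, but by cell names that no sample label uses. It therefore gave only the count of arrays with detection, and its 8 intensity columns were not used. The cell name D stands there both alone and as pooled, so the lines may share a source of cells. Probe symbols came from the platform annotation. The number of arrays limits the precision.

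Background was corrected by normexp (offset 50), arrays were quantile normalized and log2 was taken. Of 25697 probes, 11152 had a detection p under 0.05 on at least 3 arrays, and the brightest probe stood for each gene, giving 8488 genes, 639 of them without a symbol. Cre and GFP were compared with limma 3.58.1 (R 4.3.3), the line as a block, eBayes with an intensity trend, two-sided p-values and Benjamini-Hochberg over all genes at 0.05. Pairs come from the labels, which give each Cre array a GFP array of its line; deviations from the arm mean correlated at 0.818, 0.919 and 0.749 within cKO1, cKO2 and pcKO1. The line contrast used a mean for each line and arm. The fits were tested on simulated data.

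Described singly by rule were H3f3b, members of 1 sign in all 3 lines, the 10 members with the largest line contrast, the 4 other repair genes with the largest contrast, up to 4 of them with 1 sign, and members whose probes differed in sign. Other genes given with values, the single proliferation genes among them, were not picked by these rules. Members, lists and tests were chosen with earlier results of these data known. Alternatives covered background correction, scaling, detection filter, probe choice, trend, block and each line left out.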

Additional observations from a re-analysis of the deposited data

Results flagged for a closer look

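Among 48 sets of 4 arrays of named genes, 3 had 1 array far from the other 3. Chance alone marks about 1 in 20 sets of independent arrays. Each set here held the cKO2 duplicates, which are not independent, so that rate need not apply. Brca2 on the GFP arrays was highest on the first cKO2 duplicate at 7.03, with the others at 6.68 to 6.70. Mre11a on the GFP arrays was highest in cKO1 at 9.01, with the others at 8.12 to 8.24. Rpa2 on the Cre arrays was highest in cKO1 at 9.16, with the others at 6.86 to 7.15.

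For 5 named genes the Cre difference in cKO1 minus the mean of those in cKO2 and pcKO1 passed limma's test. The error of that test comes from the cKO2 duplicates, with the variance shared across genes, and holds no spread between cultures. The contrast was 1.34 for Fen1 and 1.23 for Rpa2, both higher in cKO1. It was -1.21 for Mgmt and -0.85 for Ercc4, though Ercc4 did not pass against cKO2 alone, at -0.63 (adjusted p of 0.0876). It was -1.68 for H3f3b, where pcKO1 was the line apart, since its Cre difference was -2.17 and the cKO lines were at -5.32 and -5.11. None of these was a measured repair member of the main list.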

How the results depend on the processing

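In Cre against GFP 0 members passed under 13 other settings, where their median difference stayed between -0.15 and -0.03, and in the line contrast 0 passed under 10. Over all genes the count passing Cre against GFP, 0 as reported, was 1 with median scaling, 1 with no filter on detection and 3 to 100 when a line was left out (100 without cKO1, 3 without cKO2 and 69 without pcKO1). With a line left out the error rests largely on the variance shared across genes, so those counts do not measure the spread between lines. The lowest adjusted p of a member was 0.132 without cKO1 and 0.53 without pcKO1 (limma). With the cKO2 duplicates as separate pairs in a replicate block over 4 pairs, 5 genes passed and the members' lowest adjusted p was 0.725; with no replicate block, 0 genes passed, 22 had an unadjusted p under 0.05 and no member's call changed.

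With median scaling the members' median was -0.13 in cKO1 (0.04 as reported) and 0.0016 for the line contrast (0.19 as reported). Against cKO2 alone, 791 genes passed the line contrast, and Ercc4, at -0.63, did not (adjusted p of 0.0876). Brca2 was at -0.06 against pcKO1 alone. The causes were not tested. Of 258 values of named genes recomputed under other settings, 250 kept their direction and their side of the threshold. H3f3b passed with the 4 pairs, with median scaling and with no filter. It also passed when any 1 line was left out, on an error largely shared across genes. A planned neqc analysis was not run, as it needs intensity columns that name no sample.

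Precision is limited by 3 lines and by members near the detection limit. Of the 41 genes 16 were not measured, 13 with no probe past the filter and 3 with no probe.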
